A study of Homo sapiens with 56 samples.

Results

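Fulvestrant, labelled ICI after its laboratory code, is an estrogen receptor antagonist, and the question here was which genes answered it differently in PEO1 and PEO4. Both are established lines of high-grade serous ovarian cancer. The response difference was (PEO4 ICI minus PEO4 vehicle) minus (PEO1 ICI minus PEO1 vehicle), tested as an interaction over 16 of the 56 arrays of the study, with 4 arrays in each of the 4 groups. Cells of every group spent 3 days in medium without phenol red and with charcoal-stripped serum, which removes steroid hormones, and then received ethanol vehicle or 1 µM ICI for 3 h. The same groups were also taken at 0 h, and with 1 nM estradiol (E2) given alone or together with ICI, in 4 arrays each. The other 16 arrays, with 1 µM 4-hydroxytamoxifen (titled 4OHT in PEO1 and Tam in PEO4) with or without E2, are in no comparison here and enter only the estimate of the spread behind every p; without them and all other arrays not compared, 8 genes were called. Replicates carry the letters A to D in PEO1 and the numbers 1 to 4 in PEO4. The labels do not say whether they were separate cultures, so the p-values measure the spread between these arrays, and each line is 1 line, so a difference between them is a difference between these lines only. The values are log2 expression values made by RMA, 1 probe set per gene, for 11963 genes, and every adjusted p is Benjamini-Hochberg adjusted over all of them after limma.

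The 16 measured epithelial and Muellerian genes had a median level of 10.64 in PEO1 and 11.62 in PEO4 vehicle cells. PAX8 was at 10.96 and 11.88, WT1 at 11.44 and 12.74, and KRT18 at 13.81 and 13.60. The lowest of them was SOX17, at 3.99 and 4.61, so not every such marker was high. The leukocyte marker PTPRC was at 3.17 and 4.11, and the hepatocyte marker ALB at 4.12 and 4.56. The 13 stromal, endothelial and immune genes had medians of 5.49 and 6.34, with COL1A1 the highest at 8.32 and 8.51. The 10 hepatocyte and neural genes had medians of 6.255 and 7.17, with MBP the highest at 9.80 and 10.12. RNA quality was followed by the difference between the 3' and 5' probe sets of ACTB, which grows as RNA degrades. It lay between -0.16 and 0.04 on the PEO1 vehicle and ICI arrays, between 0.24 and 0.57 on the PEO4 vehicle arrays, and between 0.52 and 0.92 on ICI arrays 2, 3 and 4 of PEO4, but at 3.41 on ICI array 1. On 0 h array 4 of PEO4 it was 2.28, against 0.50 to 0.64 on the other PEO4 0 h arrays. Results that use these arrays were therefore also computed without them. The medians of the 28 PEO1 arrays (7.41 to 7.49) and the 28 PEO4 arrays (7.85 to 7.92) did not overlap, and the lines were taken as normalized apart, so levels were not tested across them. A difference of responses uses only changes within each line.

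Estrogen receptor alpha is a nuclear receptor that binds DNA at estrogen response elements, or through partners such as AP-1 and Sp1, and recruits coactivators when E2 is bound. Fulvestrant competes with E2, blocks coactivator binding and leads to degradation of the receptor. In hormone-deprived cells it can lower a target gene only as far as the receptor still drives that gene. Early targets in epithelial cancer cells include growth regulators such as MYC and GREB1.

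The response differed for 12 genes at an adjusted p under 0.05, and in each of them the PEO4 value was the higher: KAZN, RASGRP1, PLAT, MYBL1, CBLN1, CISH, ID4, CCKAR, GREB1, FGFR2, B4GAT1 and KLF4. This is 0.1% of the genes tested, with 12 higher and 0 lower, while 1159 genes had an unadjusted p under 0.05 where 598 are expected by chance. The median difference over all genes was 0.04, and 64.3% of genes lay above 0. After quantile normalization within each line the median was 0.01 and 9 genes passed, 9 higher and 0 lower. Without PEO4 ICI array 1 the count was 9 (0.0752%), again 9 higher and 0 lower, with 738 genes at an unadjusted p under 0.05, a median of 0.02 and 59% of genes above 0. The lists with and without this array shared 8 genes, from KAZN to CCKAR in the order above, and MYC joined. With the ACTB difference as a covariate 11 genes passed, 10 higher and 1 lower, and the 8 genes from KAZN to CCKAR were among them. KAZN then stood at 0.57 ± 0.07 (adjusted p = 1.05e-06), RASGRP1 at 0.67 ± 0.10 (adjusted p = 4.69e-05) and CCKAR at 0.47 ± 0.09 (adjusted p = 0.00937). GREB1 (0.70 ± 0.17), FGFR2 (0.29 ± 0.07) and KLF4 (0.34 ± 0.08) shared an adjusted p of 0.0874 and B4GAT1 (0.26 ± 0.07) had 0.125. The 3 other calls were MYC, GNAT3 and, lower in PEO4, TRIM5 at -0.60 ± 0.11, which was named after its values were seen.

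**Figure D1:**
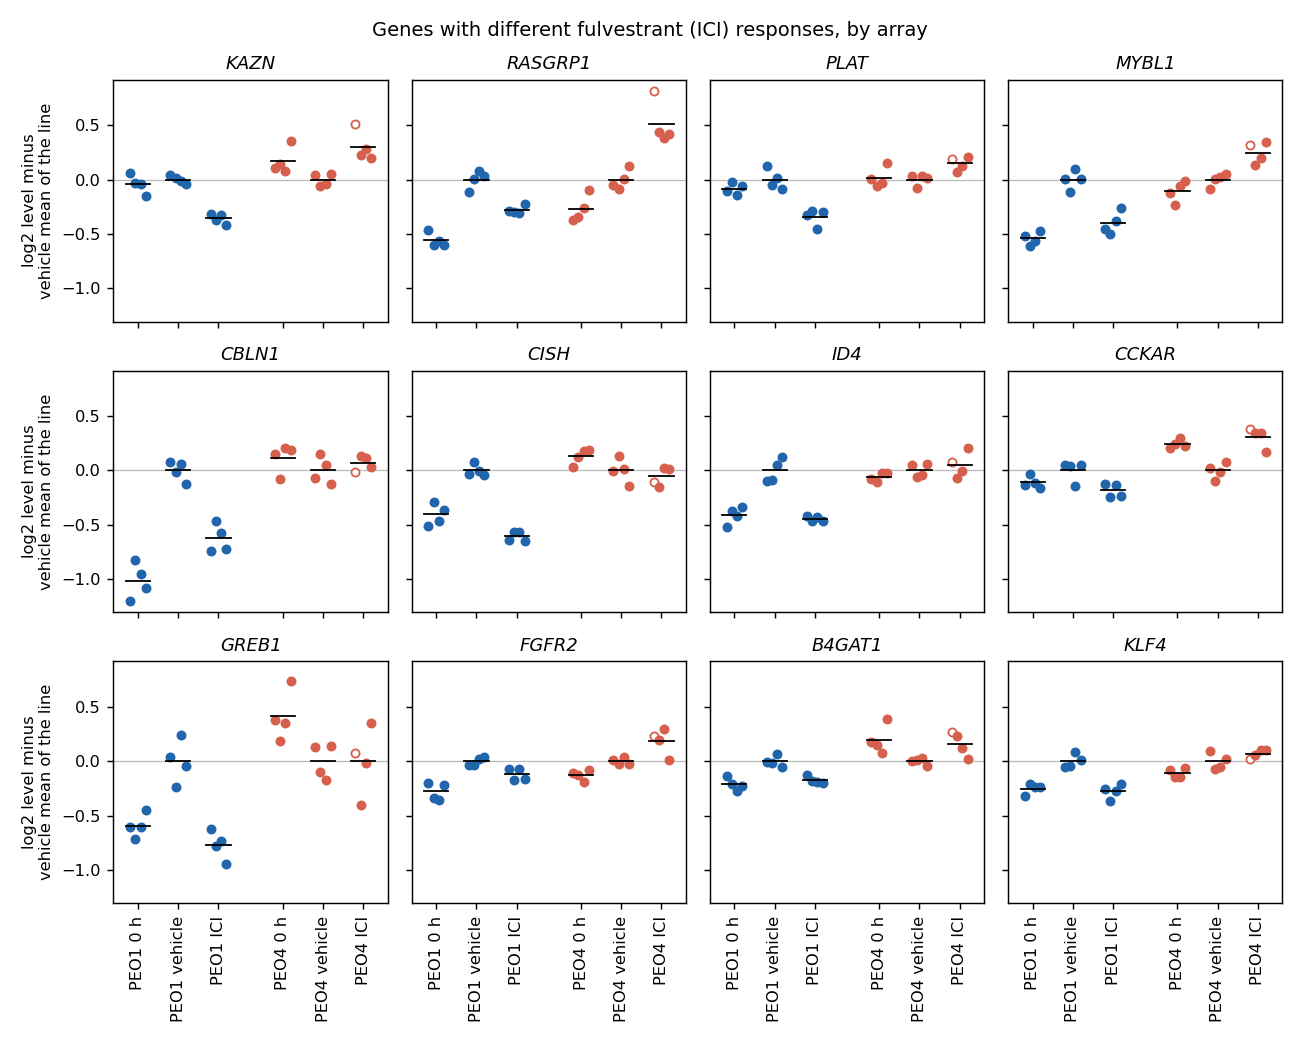
Log2 level of each of the 12 genes on every 0 h, vehicle and ICI array, less the mean of the vehicle arrays of the same line, with PEO1 in blue, PEO4 in red, group means as lines and PEO4 ICI array 1 as an open circle. In 11 of the 12 panels all 4 PEO1 ICI points lie below all 4 PEO1 vehicle points, and in 5 panels all 4 PEO4 ICI points lie above the PEO4 vehicle points.

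In PEO1 all 4 ICI arrays lay below all 4 vehicle arrays for 11 of the 12 genes, CCKAR being the exception. Over all genes 2.62% did so. In PEO4 all 4 ICI arrays lay above the vehicle arrays for 5 of the 12 (KAZN, RASGRP1, PLAT, MYBL1 and CCKAR), against 3.46% of all genes, and the same 5 did so without ICI array 1, against 4.47%. These are the arrays that chose the genes, so the counts describe how each difference is made up and are no separate evidence. By the same arrays 8 of the 12 were called lower with ICI in PEO1, where 0.092% of genes were (KAZN, PLAT, MYBL1, CBLN1, CISH, ID4, GREB1 and KLF4). In PEO4 5 of the 12 were called higher, where 1.65% of genes were (KAZN, RASGRP1, MYBL1, CCKAR and FGFR2). That PEO4 background is itself unsettled: 301 genes passed in PEO4 over all 56 arrays, 197 higher and 104 lower, or 1.65% and 0.869%, and 5 without ICI array 1, 3 higher and 2 lower, or 0.0251% and 0.0167%. Of the 12 only RASGRP1 was still called in PEO4 without array 1, the adjusted p of the other 4 being 0.0708 (KAZN), 0.0829 (CCKAR), 0.164 (FGFR2) and 0.203 (MYBL1). With only the compared arrays in the fit, 0 genes were called in PEO4, so these calls also rest on the spread taken from the other groups.

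**Figure D2:**
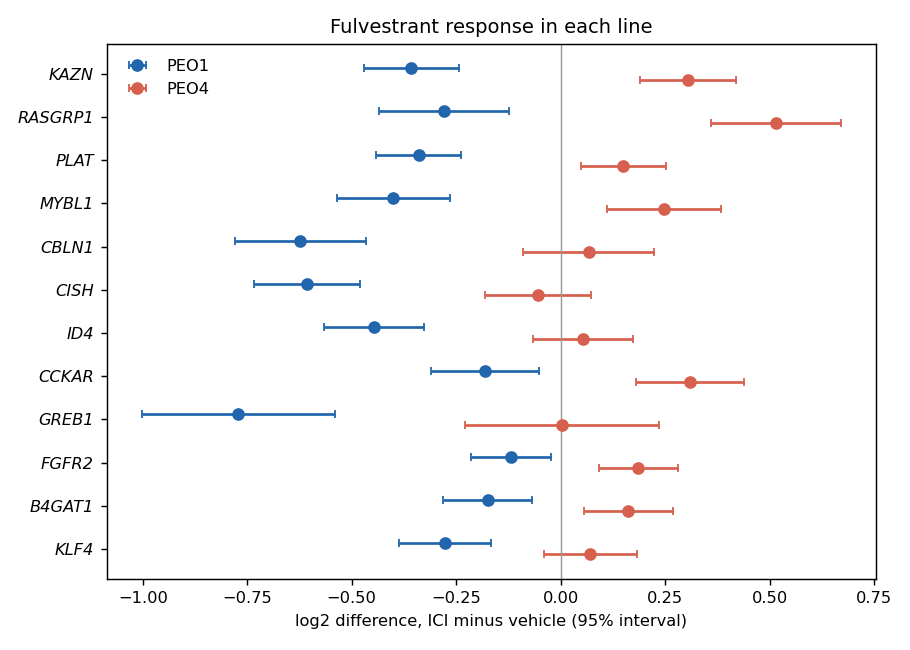
Response to ICI (log2, ICI minus vehicle) of the 12 genes in PEO1 (blue) and PEO4 (red), with 95% intervals from limma over 56 arrays and n = 4 arrays per group. The PEO1 values lie between -0.77 (GREB1) and -0.12 (FGFR2), and the PEO4 values between -0.05 (CISH) and 0.52 (RASGRP1).

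Signalling genes made up 4 of the 12. RASGRP1 activates Ras by exchanging its bound nucleotide and responds to diacylglycerol. Its log2 level was 11.66, 11.77, 11.85 and 11.80 on PEO1 vehicle arrays A to D and 11.48, 11.48, 11.46 and 11.55 on the ICI arrays. In PEO4 it was 8.06, 8.02, 8.11 and 8.23 with vehicle and 8.92, 8.54, 8.49 and 8.52 with ICI. The groups overlapped in neither line, PEO1 being lower with ICI and PEO4 higher, with array 1 standing above the other PEO4 ICI arrays. The difference was 0.79 ± 0.11 (1.73-fold, adjusted p = 1.84e-05). It was made of -0.28 ± 0.08 in PEO1, which did not pass by itself (adjusted p = 0.336), and a rise of 0.52 ± 0.08 in PEO4 (adjusted p = 0.000233). Without array 1 the PEO4 rise was 0.41 ± 0.07 (adjusted p = 0.00498) and the difference 0.69 ± 0.10 (adjusted p = 9.54e-05).

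CISH encodes a SOCS-family inhibitor of cytokine receptor and STAT5 signalling. It read 8.62, 8.73, 8.65 and 8.61 on the PEO1 vehicle arrays against 8.01, 8.09, 8.08 and 8.01 with ICI, and 7.67, 7.81, 7.68 and 7.53 on the PEO4 vehicle arrays against 7.57, 7.52, 7.69 and 7.69. The change was thus seen in PEO1, whose groups stood well apart, while the PEO4 groups overlapped. CISH fell by 0.61 ± 0.06 in PEO1 (adjusted p = 1.16e-08) and stood at -0.05 ± 0.06 in PEO4 (adjusted p = 0.653), a difference of 0.55 ± 0.09 (adjusted p = 0.000269).

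CCKAR, the cholecystokinin A receptor, had the larger change in PEO4. Its level was 7.11, 6.99, 7.08 and 7.16 with vehicle and 7.47, 7.43, 7.43 and 7.25 with ICI in PEO4, against 6.99, 6.98, 6.79 and 6.99 and then 6.82, 6.69, 6.81 and 6.71 in PEO1. ICI raised it by 0.31 ± 0.06 in PEO4 (adjusted p = 0.0128), and by 0.28 with an adjusted p of 0.0829 without array 1. The difference was 0.49 ± 0.09 (adjusted p = 0.00277, and 0.0124 without array 1). The other CCKAR probe set gave 0.00 ± 0.14, so this result stands on 1 of 2 probe sets.

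FGFR2, a receptor for fibroblast growth factors, had the smallest of the 12 differences, 0.31 ± 0.07 (adjusted p = 0.0437, and 0.0971 without array 1). Its PEO1 levels were 9.95 to 10.02 with vehicle and 9.81 to 9.91 with ICI, and its PEO4 levels 9.80 to 9.87 and 9.84 to 10.13. Of its 10 probe sets the others ranged from -0.37 to 0.33.

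Transcriptional regulators made up the next group. MYBL1 (A-MYB) is a MYB-family transcription factor. It was 11.10, 10.99, 11.20 and 11.11 with vehicle and 10.65, 10.60, 10.72 and 10.84 with ICI in PEO1, and 10.78, 10.87, 10.88 and 10.92 with vehicle and 11.18, 10.99, 11.07 and 11.21 with ICI in PEO4. Neither line's groups overlapped, and the directions were opposite. It fell by 0.40 ± 0.07 in PEO1 (adjusted p = 0.000511) and rose by 0.25 ± 0.07 in PEO4 (adjusted p = 0.0389). The PEO4 rise was 0.23 with an adjusted p of 0.203 without array 1. The difference, 0.65 ± 0.10 (adjusted p = 4.96e-05), was 0.63 ± 0.10 without that array (adjusted p = 0.0003).

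ID4 dimerises with basic helix-loop-helix factors and keeps them off DNA. Its PEO1 vehicle arrays read 10.20, 10.21, 10.34 and 10.41 and its ICI arrays 9.87, 9.82, 9.86 and 9.82, while PEO4 read 13.20, 13.09, 13.11 and 13.21 and then 13.23, 13.08, 13.15 and 13.36. The PEO1 groups were separate and the PEO4 groups overlapped. It fell by 0.45 ± 0.06 in PEO1 (adjusted p = 5.5e-06) and was at 0.05 ± 0.06 in PEO4 (adjusted p = 0.644). The difference was 0.50 ± 0.08 (adjusted p = 0.00058). Its other probe sets gave 0.51 ± 0.17, close to this value, and 0.07 ± 0.16.

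GREB1, an estrogen receptor cofactor and the best known early target among the 12, had the largest fall in PEO1 and the largest spread in PEO4. PEO1 arrays read 5.81, 5.53, 6.01 and 5.72 with vehicle and 5.15, 4.98, 5.03 and 4.82 with ICI. These are low values for PEO1, whose array medians were 7.41 to 7.49. PEO4 arrays read 8.64, 8.40, 8.34 and 8.65 with vehicle and 8.59, 8.11, 8.49 and 8.86 with ICI, so the PEO4 ICI arrays spanned the vehicle range on both sides. ICI lowered it by 0.77 ± 0.12 in PEO1 (adjusted p = 5.53e-05), and PEO4 stood at 0.00 ± 0.12, with a 95% interval from -0.23 to 0.24. The difference was 0.77 ± 0.16 (adjusted p = 0.0257). Leaving out array 1 changed its size little, to 0.75 ± 0.17, but took it out of the called genes (adjusted p = 0.0673). The other GREB1 probe sets gave 0.13 ± 0.12 and 0.05 ± 0.11.

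KLF4, a zinc finger factor of epithelial differentiation, fell by 0.28 ± 0.06 in PEO1 (adjusted p = 0.00888), from 9.72 to 9.86 over the vehicle arrays to 9.41 to 9.57 over the ICI arrays. In PEO4 it was 10.04 to 10.21 and 10.13 to 10.22, which overlap. The difference was 0.35 ± 0.08 (adjusted p = 0.0481, and 0.053 without array 1), and the other KLF4 probe set gave -0.12 ± 0.21.

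MYC did not pass over all arrays but did where array 1 was left out or weighted down, or the ACTB difference entered as a covariate. This proto-oncogene was 12.22, 12.20, 12.25 and 12.26 with vehicle and 11.68, 11.81, 11.71 and 11.83 with ICI in PEO1. The PEO4 vehicle arrays read 11.18, 11.16, 11.25 and 11.20, and the ICI arrays 10.54, 11.10, 11.25 and 11.20. PEO4 ICI arrays 2, 3 and 4 thus lay within or just below the vehicle range and array 1 far below it. Over all arrays the difference was 0.30 ± 0.11 (adjusted p = 0.351). Without array 1 it was 0.46 ± 0.07 (adjusted p = 0.000304), from a fall of 0.48 ± 0.05 in PEO1 and -0.02 ± 0.06 in PEO4. MYB, a relative of MYBL1, stood at 0.51 ± 0.13 and did not pass (adjusted p = 0.107).

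**Figure D3:**
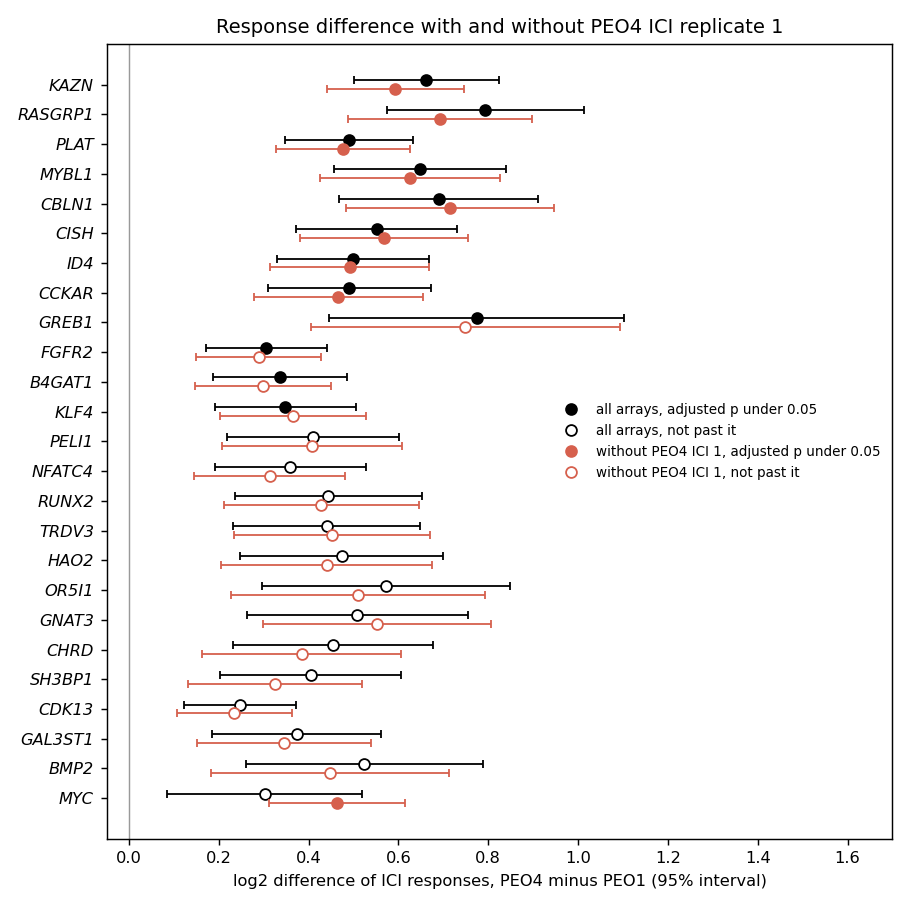
Difference of the ICI responses (log2, PEO4 minus PEO1, 95% interval) over all 56 arrays (black) and without PEO4 ICI array 1 (red), with filled points past an adjusted p of 0.05, for the 12 genes, the next 12 by unadjusted p, and MYC. Every point estimate stays above 0 with and without the array, and MYC moves from 0.30 to 0.46.

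The remaining 4 genes encode structural, secreted or enzymatic proteins. KAZN encodes kazrin, a protein linked to desmosomes and cornified epithelium, and had the smallest p of all genes. It was 10.57, 10.55, 10.52 and 10.49 with vehicle and 10.22, 10.16, 10.21 and 10.11 with ICI in PEO1. In PEO4 it was 10.79, 10.69, 10.70 and 10.80 and then 11.26, 10.97, 11.03 and 10.94. The groups were separate and moved in opposite directions, with array 1 highest. The difference was 0.66 ± 0.08 (1.58-fold, adjusted p = 1.08e-06), from a fall of 0.36 ± 0.06 in PEO1 (adjusted p = 0.000171) and a rise of 0.30 ± 0.06 in PEO4 (adjusted p = 0.00745). Without array 1 the PEO4 value was 0.24 ± 0.06 (adjusted p = 0.0708) and the difference 0.59 ± 0.08 (adjusted p = 4.95e-06). The other 2 KAZN probe sets gave 0.20 ± 0.12 and 0.12 ± 0.12.

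PLAT is tissue plasminogen activator, a secreted protease that turns plasminogen into plasmin. PEO1 arrays read 7.73, 7.56, 7.62 and 7.52 with vehicle and 7.28, 7.33, 7.16 and 7.31 with ICI, and PEO4 arrays 11.27, 11.17, 11.27 and 11.25 and then 11.43, 11.31, 11.37 and 11.45. All PEO1 ICI arrays were lower and all PEO4 ICI arrays higher than their vehicle arrays. PLAT fell by 0.34 ± 0.05 in PEO1 (adjusted p = 5.49e-05), while the PEO4 value of 0.15 ± 0.05 did not pass (adjusted p = 0.0844). The difference was 0.49 ± 0.07 (adjusted p = 4.57e-05).

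CBLN1, a secreted cerebellin best known at synapses, fell by 0.62 ± 0.08 in PEO1 (adjusted p = 1.56e-06). Its PEO1 levels were 8.35, 8.27, 8.34 and 8.15 with vehicle and 7.54, 7.82, 7.71 and 7.56 with ICI. In PEO4 it lay between 4.46 and 4.73 on all 8 arrays and the groups overlapped. These are low values for that line, and RMA values hold no detection call. The difference was 0.69 ± 0.11 (adjusted p = 0.000269). B4GAT1, a glucuronyltransferase of dystroglycan glycosylation, had levels of 8.69 to 8.80 with vehicle and 8.53 to 8.61 with ICI in PEO1, and of 9.40 to 9.48 and 9.46 to 9.72 in PEO4. Its difference was 0.34 ± 0.07 (adjusted p = 0.0475, and 0.143 without array 1), and neither line passed by itself, PEO1 standing at -0.17 ± 0.05 (adjusted p = 0.547) and PEO4 at 0.16 ± 0.05 (adjusted p = 0.0772).

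RefSeq promoters were at hand for 6 of the 12 genes, 13 promoters in all, and the 250 bases upstream of each start were searched on both strands. The arm of the estrogen response element (GGTCA on either strand) was found in 5 of 13, 4 of them of FGFR2 and 1 of KAZN, so in 2 of 6 genes, against 32.6% of 35116 promoters, and the full element, an arm, any 3 bases and its reverse complement, in 0 of 13, against 0.0399%. Also searched were the AP-1 site TGANTCA, found in 1 of 13, against 6.57%, and the GC box GGGCGG (on either strand), which Sp1 binds, found in 7 of 13 and 5 of 6 genes, against 42.6%. Promoters of 1 gene are not separate observations, and KAZN and FGFR2 hold 4 and 5 of the 13. The promoters below belong to the genes with the smallest p that could be matched and to FGFR2. They are printed 5′ to 3′ on the gene's strand (GRCh38.p14, RefSeq), with the arm, in either orientation, or the AP-1 site in capitals, and those of RASGRP1 and CISH hold neither.
KAZN, the second promoter (chr1:14923904-14924153, plus strand): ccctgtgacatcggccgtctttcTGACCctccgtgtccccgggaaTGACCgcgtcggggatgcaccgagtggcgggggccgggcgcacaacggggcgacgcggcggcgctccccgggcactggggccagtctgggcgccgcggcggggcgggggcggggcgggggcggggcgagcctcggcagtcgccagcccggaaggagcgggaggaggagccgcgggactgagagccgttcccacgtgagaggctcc
KAZN, the third promoter (chr1:14929490-14929739, plus strand): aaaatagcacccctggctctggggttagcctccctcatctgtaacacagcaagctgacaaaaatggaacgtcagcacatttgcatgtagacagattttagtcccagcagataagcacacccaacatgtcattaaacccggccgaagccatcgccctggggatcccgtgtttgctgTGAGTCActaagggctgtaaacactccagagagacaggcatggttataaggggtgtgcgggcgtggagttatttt
RASGRP1 (chr15:38564815-38565064, minus strand): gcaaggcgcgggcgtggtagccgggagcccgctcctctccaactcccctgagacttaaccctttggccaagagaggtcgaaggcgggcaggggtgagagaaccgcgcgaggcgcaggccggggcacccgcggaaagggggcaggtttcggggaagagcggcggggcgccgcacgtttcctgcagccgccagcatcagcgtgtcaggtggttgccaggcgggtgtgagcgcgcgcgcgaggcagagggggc
CISH (chr3:50611775-50612024, minus strand): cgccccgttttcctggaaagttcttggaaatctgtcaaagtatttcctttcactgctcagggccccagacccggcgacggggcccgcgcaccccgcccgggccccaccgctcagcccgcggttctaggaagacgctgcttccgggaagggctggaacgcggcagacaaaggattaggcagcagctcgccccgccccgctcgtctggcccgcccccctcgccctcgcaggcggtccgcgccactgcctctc
FGFR2, the first promoter (chr10:121598445-121598694, minus strand): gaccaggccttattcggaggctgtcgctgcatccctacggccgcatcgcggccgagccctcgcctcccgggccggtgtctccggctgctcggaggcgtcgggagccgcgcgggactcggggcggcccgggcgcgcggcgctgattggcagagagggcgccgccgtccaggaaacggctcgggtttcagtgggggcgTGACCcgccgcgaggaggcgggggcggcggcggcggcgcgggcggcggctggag
The second KAZN promoter holds 2 arms, whose outermost bases lie 227 and 205 bases before the start, and 4 GC boxes, and the third holds the AP-1 site 75 bases before its start. FGFR2 has 1 arm 54 bases before its first start, and CISH has 3 GC boxes. A match is a run of letters and was not tied to binding here.

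The change from E2 alone to ICI with E2 was also compared between the lines. This used 16 other arrays, which share none with the arrays above. Such a change also holds any difference between the lines in how far E2 had raised a gene, so it does not measure ICI alone. In this comparison 50 genes differed, 26 higher and 24 lower in PEO4, or 0.418% of the genes tested. Shared calls were 5 of the 12 and 5 of the 50. CISH differed by 0.85 ± 0.09 (adjusted p = 7.41e-09), GREB1 by 0.82 ± 0.16 (adjusted p = 0.0042), CBLN1 by 0.67 ± 0.11 (adjusted p = 0.000198) and PLAT by 0.40 ± 0.07 (adjusted p = 0.000696), each in the same direction as without E2. RASGRP1 had the opposite sign: with E2 present its difference was -0.98 ± 0.11 (adjusted p = 3.44e-08). Its PEO4 level went from 10.04 ± 0.12 with E2 to 8.65 ± 0.08 with both agents, and its PEO1 level from 12.07 ± 0.07 to 11.66 ± 0.04 (SD, n = 4). With ICI alone it was 8.62 ± 0.20 in PEO4 and 11.49 ± 0.04 in PEO1 (SD, n = 4). E2 over vehicle had raised RASGRP1 by 1.93 ± 0.08 in PEO4 and 0.30 ± 0.08 in PEO1. For KAZN these rises were 1.35 ± 0.06 and 0.69 ± 0.06.

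With E2 present GREB1 went from 7.74 ± 0.10 to 5.44 ± 0.17 in PEO1 and from 10.20 ± 0.23 to 8.72 ± 0.13 in PEO4, and CISH from 9.27 ± 0.13 to 8.20 ± 0.06 and from 7.90 ± 0.11 to 7.68 ± 0.13 (SD, n = 4). ICI on E2 was called lower for 1.35% of genes in PEO1 and 2.15% in PEO4. Both genes were among them in both lines, and the drop was larger in PEO1 in each case. GREB1 fell by 2.30 ± 0.12 and 1.48 ± 0.12, and CISH by 1.07 ± 0.06 and 0.22 ± 0.06 (adjusted p = 0.0459 for CISH in PEO4, the weakest of the 4). The other 7 of the 12 did not pass with E2. KAZN stood at -0.26 ± 0.08 (adjusted p = 0.207), KLF4 at -0.18 ± 0.08 (adjusted p = 0.649), ID4 at 0.32 ± 0.08 (adjusted p = 0.0785), MYBL1 at 0.13 ± 0.10 (adjusted p = 0.935) and CCKAR, B4GAT1 and FGFR2 between 0.01 and 0.08. MYC stood at -0.34 ± 0.11 (adjusted p = 0.22).

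**Figure D4:**
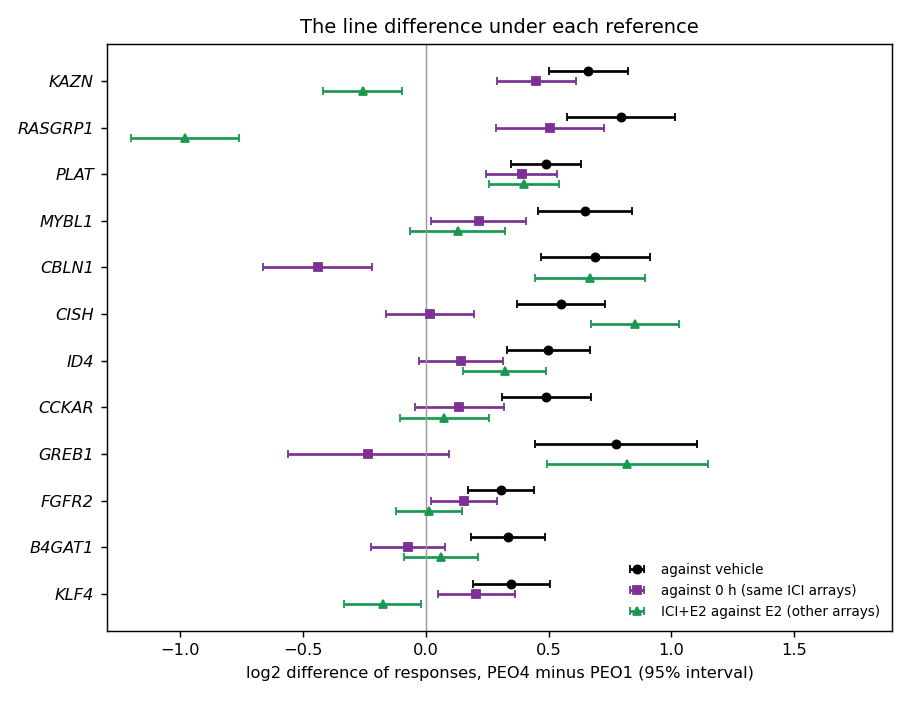
Difference between the lines (log2, PEO4 minus PEO1, 95% interval) for the 12 genes with ICI set against vehicle (black circles), against 0 h with the same ICI arrays (purple squares), and for ICI with E2 set against E2 on other arrays (green triangles). RASGRP1 runs from 0.79 against vehicle to -0.98 with E2 present, whereas PLAT stays between 0.39 and 0.49.

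Vehicle arrays enter the ICI responses above, except those with E2 present, and levels changed between 0 h and 3 h of vehicle. The vehicle and the time cannot be told apart in this change. In PEO1 4.33% of genes were called higher and 1.21% lower with vehicle than at 0 h, and in PEO4 5.02% and 3.82%. Compared between the lines, this change was lower in PEO4 for 163 of the 11963 genes and for 7 of the 12. Those 7 were MYBL1, CBLN1 (-1.13 ± 0.11), CISH (-0.54 ± 0.09), ID4, CCKAR, GREB1 (-1.01 ± 0.16) and B4GAT1. It was higher for 123 genes and 0 of the 12. The same vehicle arrays enter the ICI response difference with the opposite sign, so these counts are no separate evidence. CBLN1 rose by 1.01 ± 0.08 from 0 h to vehicle in PEO1 and was at -0.11 ± 0.08 in PEO4. GREB1 rose by 0.60 ± 0.12 (adjusted p = 0.000479) in PEO1 and fell by 0.41 ± 0.12 (adjusted p = 0.0141) in PEO4. Also higher with vehicle than at 0 h in PEO1 were RASGRP1 (0.56 ± 0.08), MYBL1 (0.54 ± 0.07), ID4 (0.41 ± 0.06), CISH (0.40 ± 0.06), FGFR2 (0.28 ± 0.05), KLF4 (0.25 ± 0.06) and B4GAT1 (0.21 ± 0.05), while KAZN (0.04 ± 0.06) and PLAT (0.08 ± 0.05) did not pass. CCKAR (0.11 ± 0.06) did not pass either. In PEO4 RASGRP1 was higher with vehicle than at 0 h (0.27 ± 0.08), and CCKAR (-0.25 ± 0.06), B4GAT1 (-0.20 ± 0.05) and KAZN (-0.17 ± 0.06) were lower. Without PEO4 0 h array 4 the RASGRP1 and CCKAR calls held, while GREB1 (-0.31 ± 0.12, adjusted p = 0.127), B4GAT1 (-0.14 ± 0.05, adjusted p = 0.117) and KAZN (-0.11 ± 0.06, adjusted p = 0.31) were no longer called, and the genes called lower in PEO4 went from 457 to 243.

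Against 0 h, with the ICI arrays shared, 208 genes (1.74%) passed, and 278 without PEO4 0 h array 4, which changed the call of none of the 12. The line difference was 0.45 ± 0.08 for KAZN (adjusted p = 0.000226), 0.51 ± 0.11 for RASGRP1 (adjusted p = 0.00369) and 0.39 ± 0.07 for PLAT (adjusted p = 0.000347). CBLN1 changed sign, at -0.44 ± 0.11 (adjusted p = 0.0207). Without PEO4 ICI array 1, 219 of the 11963 genes passed and these genes were still called. KAZN was then at 0.38 ± 0.08 (adjusted p = 0.00119) and PLAT at 0.38 ± 0.07 (adjusted p = 0.00108). RASGRP1 was at 0.41 ± 0.10 (adjusted p = 0.0194) and CBLN1 at -0.41 ± 0.12 (adjusted p = 0.0436). Over all arrays GREB1 stood at -0.23 ± 0.16 (adjusted p = 0.676) and CISH at 0.02 ± 0.09 (adjusted p = 0.985), and neither passed with this reference. The other 6 lay between -0.07 (B4GAT1) and 0.22 (MYBL1) and did not pass. By arrays, the PEO1 ICI levels of KAZN, PLAT and CISH lay below all 4 PEO1 0 h arrays. Those of RASGRP1, CBLN1 and FGFR2 lay above them, and those of the other 6 overlapped them, as 86% of all genes did.

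Genes higher with E2 than at 0 h were taken as a list, since those arrays are shared with neither the ICI nor the vehicle groups. This comparison also holds any change over the 3 h. In PEO1 1046 genes were higher with E2, 8.74% of those tested, and 11 of the 12 were among them (11 of the 1046), all but CCKAR. In PEO4 906 genes were higher with E2, 7.57%, and 8 of the 12 were among them (8 of the 906). They were KAZN, RASGRP1, PLAT, MYBL1, ID4, GREB1, FGFR2 and KLF4. The same 8 were called without PEO4 0 h array 4. Against 3 h vehicle, whose arrays also enter the response difference, 158 of the 11963 genes were called higher with E2 in PEO1. There, of the 11, MYBL1 (0.23 ± 0.07, adjusted p = 0.0578), ID4 (0.12 ± 0.06, adjusted p = 0.499), FGFR2 (0.07 ± 0.05, adjusted p = 0.69) and B4GAT1 (0.03 ± 0.05, adjusted p = 0.944) did not pass. In PEO4 FGFR2 did not pass (0.08 ± 0.05, adjusted p = 0.62), while CISH did (0.22 ± 0.06, adjusted p = 0.0347). The PEO1 list had a median response difference of 0.05, and 71.6% of it lay above 0, beside 0.04 and 64.3% over all genes. For the PEO4 list these were 0.03 and 62.5%. Without ICI array 1 the medians were 0.03 for the PEO1 list, 0.01 for the PEO4 list and 0.02 for all genes. All 11 genes called lower with ICI in PEO1 were on the PEO1 list, namely KAZN, PLAT, MYBL1, CBLN1, CISH, ID4, GREB1, KLF4, MYC, PELI1 and TRPC6.

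Of 37 measured genes on a list of estrogen-induced genes, 3 were called higher in PEO4 (GREB1, CISH and MYBL1) and 0 lower, where 0.1% of all genes were called, with a median of 0.09 against 0.04 for all genes. Without array 1 GREB1 left and MYC joined, which again gave 3, and the median was 0.08 against 0.02. Its median response was -0.05 in PEO1, with 4 called lower, where 0.092% of all genes were, and 0.05 in PEO4, or 0.01 without array 1. The list was chosen with earlier results of these data known, so these counts describe it and are no separate evidence. None of the 12 measured estrogen-repressed genes differed (median 0.04, or 0.02 without array 1, smallest adjusted p = 0.496, led by TGFB3 at 0.21 ± 0.10). Neither did any of the 22 measured receptor and coregulator genes (median 0.03), the smallest adjusted p being 0.177 for TFAP2C, an AP-2 factor that opens receptor sites, at 0.25 ± 0.07.

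The receptor gene itself did not pass. ESR1 was 11.29 to 11.35 with vehicle and 11.15 to 11.30 with ICI in PEO1, and 11.57 to 11.71 and 11.64 to 11.88 in PEO4. Its difference was 0.16 ± 0.06, with a 95% interval of 0.03 to 0.29 (adjusted p = 0.423), and 0.11 ± 0.06 without array 1. PGR, the progesterone receptor, differed by -0.09 ± 0.12 (interval -0.32 to 0.14, adjusted p = 0.821) at levels of 3.22 to 4.07, near the bottom of both lines. IGFBP3, which binds insulin-like growth factors, differed by 0.17 ± 0.09 (interval -0.01 to 0.34, adjusted p = 0.522). It lay at 12.12 to 12.27 on the PEO1 arrays, and in PEO4 at 9.87 to 9.99 with vehicle and 10.02 to 10.39 with ICI.

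Families of the called genes mostly did not follow them. Among 15 Ras exchange factors and GTPase activators RASGRP1 alone passed (median 0.09, or 0.04 without array 1). RASA2, a Ras GTPase-activating protein, stood at -0.50 ± 0.14 (adjusted p = 0.19) and the small GTPase RRAS2 at 0.25 ± 0.08 (adjusted p = 0.301), or at -0.36 and 0.16 without array 1. Among 15 inhibitors of cytokine signalling only CISH passed (median 0.02, or 0.00 without array 1), with PIAS4 at -0.20 ± 0.09 and PTPN2 at 0.15 ± 0.07 next. KLF4 was the 1 call among 14 Kruppel-like factors (median 0.06, or 0.04 and 0 calls without array 1), where KLF5 had -0.36 ± 0.12 (adjusted p = 0.299) and KLF1 0.43 ± 0.15 (adjusted p = 0.322). Among 13 MYB and MYC family genes MYBL1 passed, with MYC added without array 1 (median 0.11, or 0.09 without it).

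The next 12 genes by unadjusted p were also higher in PEO4, and none passed. PELI1, a ubiquitin ligase of Toll-like receptor signalling, came first at 0.41 ± 0.09 (adjusted p = 0.0661). It was 10.12 to 10.33 with vehicle and 9.71 to 9.97 with ICI in PEO1, where its fall of 0.37 ± 0.07 passed (adjusted p = 0.00152), and 10.71 to 10.87 and 10.73 to 10.88 in PEO4. NFATC4, a calcium-regulated factor (0.36 ± 0.08), and RUNX2, a factor of bone formation (0.44 ± 0.10), shared its adjusted p. TRDV3, HAO2, OR5I1, GNAT3, CHRD, SH3BP1, CDK13 and GAL3ST1 followed with 0.25 to 0.57. Levels were low for TRDV3 (2.76 to 3.88 on the vehicle and ICI arrays) and GNAT3 (3.05 to 4.21). BMP2, a bone morphogenetic protein, was last at 0.52 ± 0.13 (adjusted p = 0.107), and CHRD encodes chordin, which binds such proteins, at 0.45 ± 0.11 (adjusted p = 0.0936). Lowly expressed genes had the larger shift: the median difference was 0.06 in the lowest 40% by mean level and 0.03 in the rest, and 0.04 and 0.01 without array 1.

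Seen over all settings of the comparison with vehicle, 6 genes passed in each in which they were tested and with each of the 16 arrays left out: KAZN, RASGRP1, PLAT, MYBL1, CBLN1 and CISH. This does not cover a change of reference or of treatment. Against 0 h MYBL1 and CISH did not pass and CBLN1 changed sign. The comparison with E2 present uses other arrays, also holds the E2 response and is no repeat of the same test. There KAZN and MYBL1 did not pass and RASGRP1 had the opposite sign. Only PLAT was called higher in PEO4 against vehicle, against 0 h and with E2 present. The choice of probe set is not covered either. In the limma fit over all probe sets the other KAZN probe sets did not pass (adjusted p = 0.548 and 0.728). RASGRP1, PLAT, MYBL1, CBLN1 and CISH had no other probe set to compare. ID4 and CCKAR missed only when the fit used the compared arrays alone and array 1 was out as well (adjusted p = 0.0715 for both). GREB1 passed with 9 of 16 arrays left out in turn, FGFR2 with 4, KLF4 with 3 and B4GAT1 with 2. The count itself depended most on PEO4 ICI arrays: 47 genes passed without array 4, of which 45 were higher. It was 747 when arrays were weighted by their fit, with 549 higher and 198 lower, where array 3 took a weight of 7.06 and arrays 1, 2 and 4 took 0.12, 0.43 and 0.50.

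**Figure D5:**
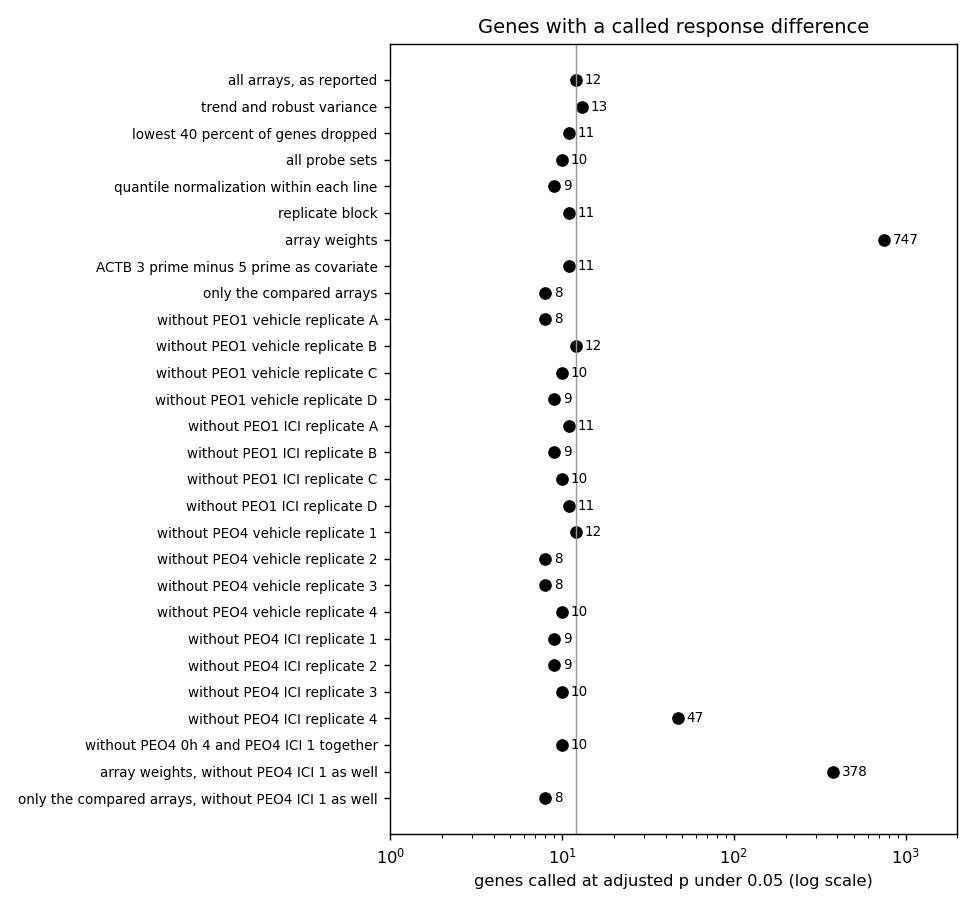
Number of genes with a called response difference (log axis) under each processing setting and with each of the 16 arrays left out, the line marking 12. Most settings give 8 to 13, whereas leaving out PEO4 ICI array 4 gives 47 and array weights give 747, or 378 without ICI array 1.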

How the data were processed

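Total RNA from PEO1 and PEO4 cells was hybridised to 56 Affymetrix arrays, in 14 groups of 4. Per the labels, the deposited values are log2 expression values made by RMA; the sources used here give no version. The number of arrays limits precision. Of 22277 probe sets, 62 controls were set aside, 19064 had 1 symbol in the platform annotation (19052 matched a RefSeq gene), 1043 several and 2108 none. The probe set with the highest mean was kept per gene, which left 11963 genes.

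All arrays entered 1 limma 3.58.1 fit in R 4.3.3, with 14 group means and 42 residual degrees of freedom, tested on simulated data. A gene was called where its p, adjusted by Benjamini-Hochberg across the 11963 genes, was under 0.05. Values after ± are standard errors unless marked SD. The rule named every called gene, the next by unadjusted p up to 24, up to 3 per list for 21 lists, and ESR1, PGR, GREB1 and IGFBP3. TRPC6 was named outside it, after its values were seen. The comparisons, genes and lists were chosen with earlier results of these data known. Alternatives were a trended robust variance, dropping the lowest 40% of genes, all probe sets, quantile normalization, a replicate block, array weights, ACTB 3' minus 5' as a covariate, fewer arrays, and leaving arrays out. Array weights without PEO4 ICI 1, the compared arrays without it, and vehicle and E2 against 0 h without PEO4 0 h 4 were chosen after seeing the data.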

Additional observations from a re-analysis of the deposited data

Results flagged for a closer look

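The response difference (log2, PEO4 minus PEO1, over all arrays, by limma's interaction test) singled out 12 genes: RASGRP1 with 0.794, GREB1 with 0.774, CBLN1 with 0.689, KAZN with 0.662, MYBL1 with 0.648, CISH with 0.552, ID4 with 0.499, CCKAR with 0.491, PLAT with 0.49, KLF4 with 0.348, B4GAT1 with 0.336 and FGFR2 with 0.306. Of these GREB1, KLF4, B4GAT1 and FGFR2 did not pass without PEO4 ICI array 1.

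Single arrays were compared with the others of their group in 52 groups of 4 by Dixon's gap test. In 4 groups an array stood apart, where chance does so in about 1 group in 20. RASGRP1 was at 8.92 on PEO4 ICI array 1, above 8.49 to 8.54 on the other 3. CCKAR was at 6.79 on PEO1 vehicle array C, below 6.98 to 6.99 on its companions. The ACTB 3' minus 5' value was 3.41 on PEO4 ICI array 1 and 0.0382 on PEO1 ICI array A. With ACTB 3' minus 5' as a covariate the same 4 genes did not pass either (adjusted p = 0.0874 to 0.125).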

How the results depend on the processing

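The response difference of each of the 81 named genes kept its sign in the settings run. Without PEO4 ICI array 1 the GREB1 response in PEO4, near 0, went from 0.00 to -0.02, the median over the stromal, endothelial and immune genes from 0.02 to -0.04 and that of all genes against 0 h from 0.00 to -0.01. The count for the response difference was 12, and 8 (without PEO1 vehicle array A) to 47 (without PEO4 ICI array 4) with an array left out. Array weights gave 747, or 378 without PEO4 ICI array 1 as well, and limma warned that the weights had not converged. The replicate block gave 11, and the ACTB covariate 11, of which 1 was lower. ICI and vehicle arrays of the same letter or number correlated in their deviations at -0.07 to 0.22 in PEO1 and -0.00 to 0.15 in PEO4. The labels do not say whether such arrays were handled together, and the main fit did not pair them.

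In PEO1 the ICI count of 12 ran from 10 to 13 with an array left out and was 41 with array weights. In PEO4 the count of 301 ran from 5 (without ICI 1) to 1642 (without ICI 4), with 7, 118 and 150 without vehicle 2, 3 and 4. It was 675 over all probe sets, 2597 with array weights, 57 with the ACTB covariate, 19 with the 28 arrays of the line, 13 without 0 h array 4 and ICI 1, and 0 by limma with only the compared arrays, where 1264 genes had an unadjusted p under 0.05 and the 56-array fit called 301. With E2 present the count of 50 ran from 34 to 48 with an array left out and was 129 with array weights, 76 with the ACTB covariate and 84 without 0 h array 4 and ICI 1. Against 0 h the count of 208 ran from 148 to 328 (the latter without ICI 4) and was 1139, 329 and 88 with array weights, the ACTB covariate and only the compared arrays. Without PEO4 0 h array 4 it was 278, and vehicle against 0 h in PEO4 gave 813 calls where 1058 were called. The cause was not tested. Over the 81 named genes, 2018 values under other settings kept direction and side of the threshold, 71 lost and 75 gained a call.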

Other observations

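Among groups with a median response difference below 0, none held a call. The histone list had the lowest median, -0.12 over 10 genes (-0.07 without PEO4 ICI array 1), led by H4C8 at -0.34 ± 0.12 (adjusted p = 0.351). The NF-kB and cytokine list had -0.09 over 20 genes, led by NFKB2 at -0.43 ± 0.15 (adjusted p = 0.322), the MAPK feedback list -0.05 over 15 and the immediate early list -0.02 over 25. CCN2, a matricellular protein gene and early response gene, came nearest to a call at -0.48 ± 0.13 (adjusted p = 0.123). Its PEO4 levels were 11.96, 11.99, 11.99 and 11.94 with vehicle and 11.12, 11.68, 11.80 and 11.73 with ICI, all lower with ICI and lowest on array 1, while PEO1 lay at 10.38 to 10.56 on all 8 arrays. Without array 1 its difference was -0.33 ± 0.11 (adjusted p = 0.473). SPRY2, a feedback inhibitor of receptor tyrosine kinase signalling, was 8.53 to 8.70 with vehicle and 8.21 to 8.36 with ICI in PEO4 and 7.45 to 7.55 in PEO1, a difference of -0.31 ± 0.09 (adjusted p = 0.187).

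Growth and housekeeping groups held 0 calls as well. The median was 0.07 for 15 insulin-like growth factor genes, led by IGFBP6 (0.21 ± 0.07, adjusted p = 0.277) and STC2 (0.31 ± 0.10, adjusted p = 0.301). It was 0.01 for 22 mitosis genes, 0.03 for 24 G1/S and replication genes, 0.09 for 14 ribosome biogenesis genes, 0.08 for 14 cholesterol genes, 0.07 for 15 stress response genes and 0.05 for 9 heat shock genes, beside 0.04 for all genes. Without PEO4 ICI array 1 these were lower for the G1/S and replication (0.00), ribosome biogenesis (0.05), cholesterol (0.05), stress response (0.01) and insulin-like growth factor (0.05) genes, beside 0.02 for all genes, and 0.02 and 0.07 for the mitosis and heat shock genes. Markers of cell types also held 0 calls, with medians of 0.04 over 16 epithelial and Muellerian, 0.02 over 13 stromal, endothelial and immune, and 0.05 over 10 hepatocyte and neural genes. Without that array the stromal, endothelial and immune median turned to -0.04, and the others were 0.03 and 0.06. The summed level of the stromal, endothelial and immune markers was 9.88 to 9.96 with vehicle and 9.79 to 9.96 with ICI in PEO1, and 10.53 to 10.61 and 10.46 to 10.57 in PEO4.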
